A study of Mus musculus with 204 samples.

Results

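Diet-induced obese (DIO) mice were compared with lean mice in 3 brain regions: the cerebral cortex, the midbrain with the brainstem, and the cerebellum. The comparison took in 30 of the 204 RNA sequencing libraries of an atlas of 21 tissues, with 5 DIO and 5 lean libraries per region, and every gene whose mean over those 30 libraries was at least 10 CPM (counts per 1000000 reads). These were 2405 of the 13153 genes with values, all of them on chromosomes 1, 2, X and 3 or at the start of chromosome 4. The mice were wild-type C57BL/6J males, an inbred strain that becomes obese on fat-rich food. DIO mice ate a diet with 60% fat for 10 weeks from 4 weeks of age, and lean mice ate chow with 13.1% fat. The labels also say that the mice were 6 to 12 weeks old when obtained, which cannot be reconciled with that start, and they give no age at death. The 15 libraries per diet came from a design with 5 mice per diet. The labels do not tie libraries to mice, so libraries of different regions probably share mice. On that account p-values and intervals of the pooled diet difference would be too small and too narrow. The test of diet by region compares regions within mice, so its p-values would sooner be too large.

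The cortex holds the layered circuits of perception and planning, the midbrain and brainstem hold the nuclei of arousal, movement and autonomic control together with long myelinated tracts, and the cerebellum holds Purkinje and granule cells that tune movement. A fat-rich diet acts on the brain through hormones such as insulin and leptin, through circulating lipids and through the vessels and glia that meet the blood. Its best known target is the hypothalamus, which senses these signals and sets food intake. The pooled comparison asked whether any gene differed by diet in the same way across the other regions.

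The libraries ranged from 8614188 to 28082061 reads. Each of the 30 matched another library of its own region best by rank correlation. Tbr1, a transcription factor of cortical neurons, lay between 80.1 and 152 CPM in cortex, and Car8, a Purkinje cell gene, between 369 and 1690.0 CPM in cerebellum. Lmx1b, a transcription factor of serotonin and dopamine neurons, lay between 10.9 and 17.3 CPM in midbrain and brainstem. Markers of other regions stood out in several libraries. In cerebellum DIO 1, DIO 3, lean 3 and lean 5, Tbr1 reached 10.9 to 29.3 CPM, against 0.623 to 1.61 CPM in the other 6. Lmx1b was also raised in cerebellum DIO 1 (4.31 CPM) and DIO 3 (2.45 CPM), against 0.187 to 1.79 CPM in the other cerebellum libraries. Gata3, another midbrain and brainstem marker, was highest in cerebellum DIO 1 (9.65 CPM), but DIO 3 (2.10 CPM) lay below lean 3 (4.40 CPM). In midbrain and brainstem DIO 4, Car8 reached 165 CPM, against 8.91 to 40.8 CPM in the other 9. These 5 are called the libraries with neighbouring markers. In cortex, DIO 5 had 20.5 CPM summed over hypothalamic and pituitary markers, and striatal markers summed to 555 CPM in DIO 4 and 857 CPM in lean 1. Fits were repeated without the 5 libraries, and without 8 libraries, which also leaves out these 3 of cortex. The libraries also fell into a pair of classes by an index built from 10 genes, which sets 5 short transcripts such as Rpl39 and Atp5e against 5 others on the log2 scale. The index lay between -2.76 and -2.00 in 16 low-index libraries (7 DIO, 9 lean) and between -0.66 and 0.005 in 14 high-index libraries (8 DIO, 6 lean). The high-index libraries were 3 DIO and 1 lean in cortex, 2 and 2 in midbrain and brainstem, and 3 and 3 in cerebellum. The 4 cerebellum libraries with cortical markers were all in the high-index class. In cortex, 3 of the DIO libraries carry identifiers apart from those of the other DIO and the lean ones, and what that stands for is not stated.

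**Figure D1:**
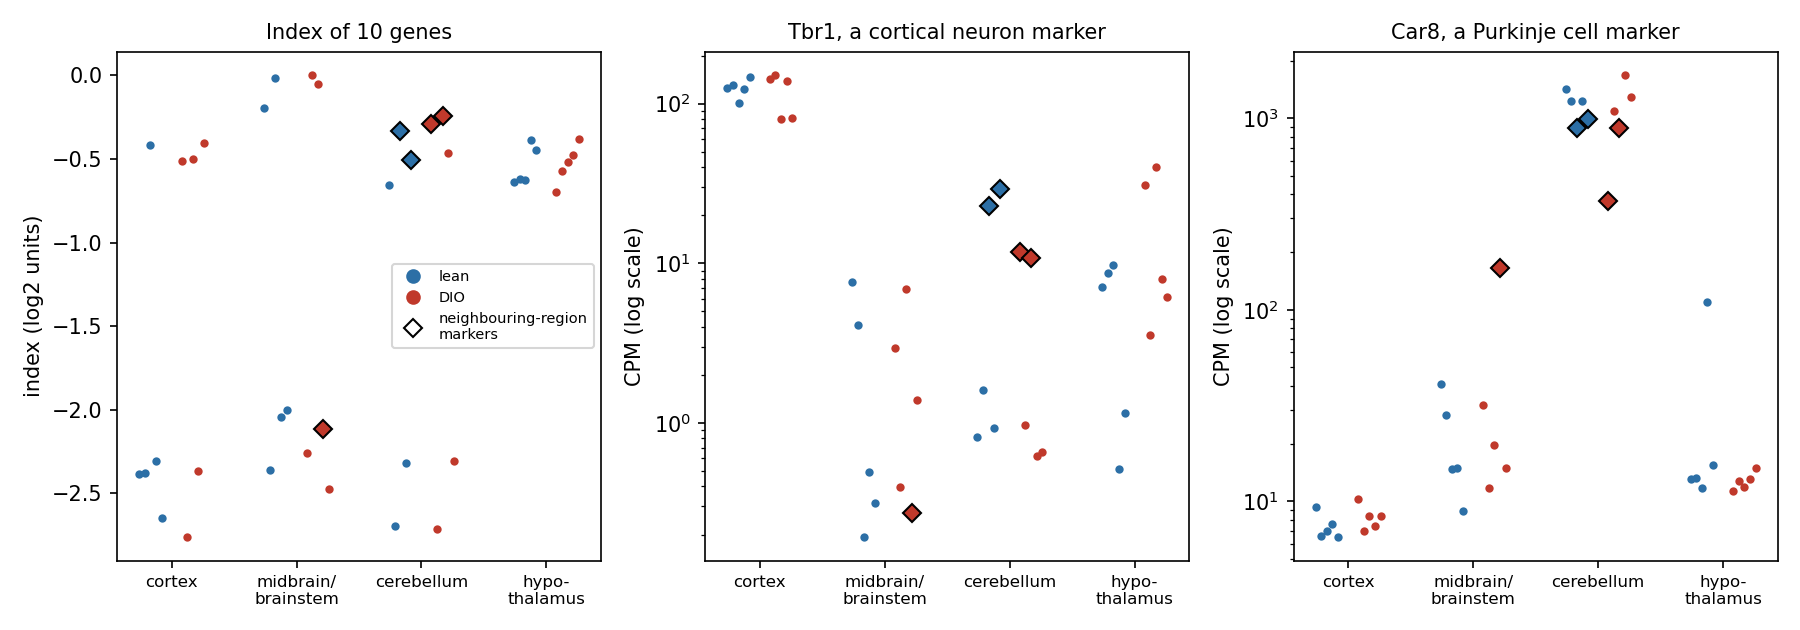
Each point is 1 library, placed by region and diet; the panels show the index of 10 genes in log2 units, Tbr1 in CPM and Car8 in CPM (log axes). The index leaves a gap between -2.00 and -0.66 in the 30 libraries of the 3 regions, and the 5 diamonds are the cerebellum and midbrain libraries with neighbouring markers.

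No gene passed the test for a diet difference over the 3 regions, with p-values that would be too small if regions share mice. With limma on log2(CPM + 1) and region as a block, 0 of 2405 genes (0%) passed an adjusted p of 0.05, in either direction. At an unadjusted p under 0.05 there were 18 genes (0.748%), and the lowest adjusted p was 0.999. A share of 5% would be 120 genes. A limma fit chosen after seeing the data added a term for library class in each region and left out the 5 libraries with neighbouring markers. It had 86 genes under 0.05 unadjusted, and 1 passed (Ccdc141, below). Whether p-values of the main fit err to the small or the large side was not tested. With edgeR's quasi-likelihood test on the recovered reads 0 genes passed and 20 had an unadjusted p under 0.05. With DESeq2 0 genes passed and 20 did so. Estimates were small: the log2 difference, DIO minus lean, had a median of 0.01 and ran from -0.27 (Igfn1) to 0.29 (Mab21l2), both named after their values were seen. Of all estimates 1402 were above 0 and 1003 below it.

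Intervals of the pooled difference were narrow, and they would be wider if shared mice were allowed for. The median half-width of the 95% interval was 0.13 on the log2 scale. With the class term and without the 5 libraries with neighbouring markers it was 0.10. In the fit of all libraries the interval lay wholly within a 2-fold difference for 2404 of 2405 genes. It lay within 1.5-fold for 2356 (98.0%) and within 1.25-fold for 2154 (89.6%). The 1 gene whose interval went past 2-fold was Tbr1 (-1.08 to 0.64), the marker that set apart the cerebellum libraries with cortical markers. Lamp5, a membrane protein of cortical interneurons that was also raised in those libraries, had the widest interval (-0.75 to 0.996). These intervals concern a difference shared by the 3 regions: single-region estimates ran from -1.09 to 0.67 in cortex and from -0.63 to 0.96 in cerebellum. Folds on this scale slightly understate changes of genes near the threshold of 10 CPM.

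**Figure D2:**
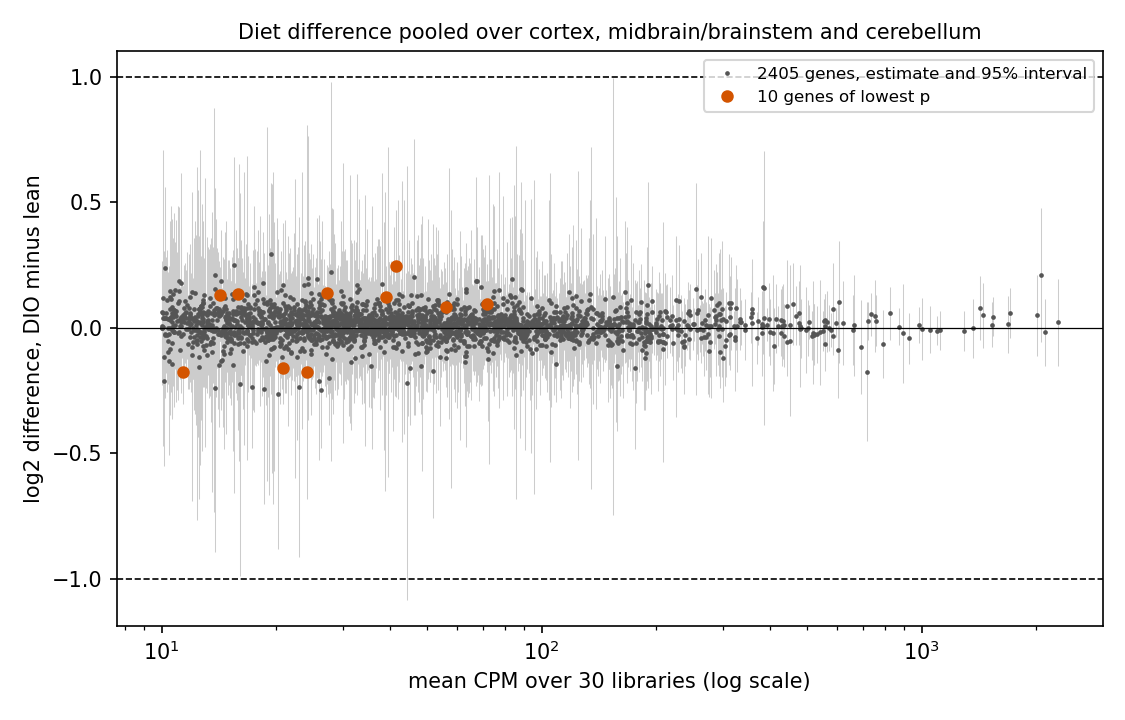
The log2 difference, DIO minus lean, of each of 2405 genes (points) with its 95% interval (grey lines) is plotted against the mean CPM over 30 libraries on a log axis; dashed lines mark a 2-fold difference. The points stay between -0.27 and 0.29, and the 10 genes of lowest p (orange) are not set apart from the others by size.

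The 10 genes of lowest p are described as values, since none passed the test. Their unadjusted p in limma ran from 0.00926 to 0.0346, and each had an adjusted p of 0.999. Values within a region rest on 5 against 5 libraries.

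Ccdc141 (chr2:77009902-77170636 in GRCm38, minus strand), a coiled-coil protein that takes part in the migration of newborn cortical neurons, had the lowest p. In cortex its level was 19.0, 16.9, 23.1, 20.8 and 20.9 CPM in the DIO libraries and 24.7, 21.7, 22.0, 23.7 and 22.5 CPM in the lean ones. In midbrain and brainstem it was 26.7, 30.1, 32.5, 27.4 and 25.2 CPM in DIO and 35.6, 32.8, 34.9, 38.2 and 30.5 CPM in lean. In cerebellum it was 23.1, 16.0, 24.5, 16.997 and 14.0 CPM in DIO and 21.9, 17.9, 21.2, 18.2 and 19.3 CPM in lean. The DIO libraries lay mostly below the lean ones in cortex and in midbrain and brainstem, with some overlap in each, while in cerebellum the DIO libraries spread on both sides of the lean ones. The pooled difference was -0.18 ± 0.06 (SE; 95% interval -0.31 to -0.05), with -0.18 in cortex, -0.27 in midbrain and brainstem and -0.08 in cerebellum. The 2 highest cerebellum DIO values, 23.1 and 24.5 CPM, were from libraries that held cortical markers. The lean libraries with such markers, lean 3 and lean 5, were at 21.2 and 19.3 CPM. Without the 5 libraries with neighbouring markers and with a term for library class in each region, the difference was -0.25 with an adjusted p of 0.0414 in limma, the only call for this or any other gene in the pooled alternatives. With the same term and without 8 libraries it was -0.27 with an adjusted p of 0.0560. Over the alternatives other than the 1 that called it, its adjusted p ran from 0.0560 to 0.99981. In the limma fits that left out 1 library it was at least 0.9955. Within the low-index libraries the difference was -0.30 and within the high-index ones -0.05, and the difference between the classes was not tested.

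Cavin2 (chr1:51289126-51302960, plus strand), a coat protein of the caveolae that are frequent in endothelium, was at 7.78, 8.55, 8.31, 9.72 and 9.10 CPM in the DIO cortex and 12.7, 10.1, 10.6, 12.4 and 9.04 CPM in the lean cortex. In midbrain and brainstem it was at 12.0, 13.1, 12.6, 12.1 and 13.5 CPM in DIO and 14.5, 15.2, 13.7, 14.8 and 13.2 CPM in lean, and in cerebellum at 10.6 ± 2.19 against 11.1 ± 1.34 CPM (mean ± SD, n = 5 each). The DIO libraries lay lower in the first 2 regions apart from a small overlap, and the groups overlapped widely in cerebellum. Its pooled difference was -0.18 ± 0.06.

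Eng (chr2:32646595-32682669, plus strand) encodes endoglin, a coreceptor for growth factors of the TGF-beta family on endothelial cells. Its level in midbrain and brainstem was 36.5, 34.4, 38.3, 31.1 and 35.8 CPM in DIO and 29.0, 30.0, 27.8, 34.1 and 34.4 CPM in lean. In cerebellum it was at 28.7, 32.9, 28.6, 24.2 and 21.6 CPM in DIO and 19.9, 22.9, 21.7, 24.6 and 22.5 CPM in lean. In cortex the groups lay on top of each other, at 23.5 ± 1.56 and 23.9 ± 1.80 CPM (mean ± SD, n = 5 each). The pooled difference of 0.14 ± 0.05 thus joined -0.02 in cortex with 0.18 and 0.26 in the other regions. Eng and Cavin2 pointed in opposite directions. The 12 tested genes of the endothelial and mural list, which holds Eng but not Cavin2, had a median difference of 0.03. Its 17 genes in the table summed to 601 to 642 CPM in DIO and 561 to 622 CPM in lean cerebellum, and the diets overlapped in this sum in each region.

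Cp (chr3:19957054-20009145, plus strand) encodes ceruloplasmin, a copper-carrying enzyme that oxidises iron and is made in the brain by astrocytes. It was at 23.2, 20.1, 18.8, 21.3 and 21.0 CPM in the DIO midbrain and brainstem and 25.9, 33.9, 22.9, 22.1 and 28.6 CPM in the lean one. In cortex it was at 14.3 ± 2.84 against 16.1 ± 1.68 CPM, and in cerebellum at 23.8 ± 2.44 against 23.6 ± 2.86 CPM (mean ± SD, n = 5 each, DIO first). All but the highest DIO value in midbrain and brainstem lay below the lean values, and there was no such order in the other regions. Its pooled difference was -0.16 ± 0.07, with -0.35 in the low-index libraries and 0.03 in the high-index ones.

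Per2 (chr1:91415982-91459324, minus strand), a repressor in the circadian clock whose level swings over the day, had the largest difference of the 10 genes. In cortex it was at 46.0, 51.6, 60.8, 57.4 and 39.9 CPM in DIO and 59.1, 28.3, 38.4, 59.4 and 42.2 CPM in lean. In cerebellum it was at 42.5, 55.5, 50.9, 59.4 and 54.1 CPM in DIO and 64.3, 26.4, 33.0, 50.5 and 40.5 CPM in lean. In midbrain and brainstem it was at 32.0, 23.2, 29.6, 35.2 and 28.4 CPM in DIO and 34.2, 25.6, 20.5, 26.7 and 22.9 CPM in lean. The lean libraries spread more widely than the DIO ones in each region, and the groups overlapped at the upper end. The pooled difference was 0.24 ± 0.11 (95% interval 0.02 to 0.47). The hour of sampling is not given in the sources used here, and its part in the result was not tested.

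The remaining 5 genes were higher in DIO by at most 0.13. Lrrc8a, the required subunit of the volume-regulated anion channel, had a pooled difference of 0.13 ± 0.06, Tmem144, a predicted carbohydrate transporter, 0.13 ± 0.05, and Fam129b 0.12 ± 0.05. Tmem250-ps, a noncoding transcript, differed by 0.10 ± 0.04 and Odr4 by 0.08 ± 0.04. Fam129b was equal in cortex (37.7 ± 3.82 and 37.7 ± 3.57 CPM) and higher on average in DIO cerebellum (38.3 ± 6.04 against 32.4 ± 1.57 CPM; mean ± SD, n = 5 each). DIO and lean libraries overlapped in every region for each of the 10 genes.

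**Figure D3:**
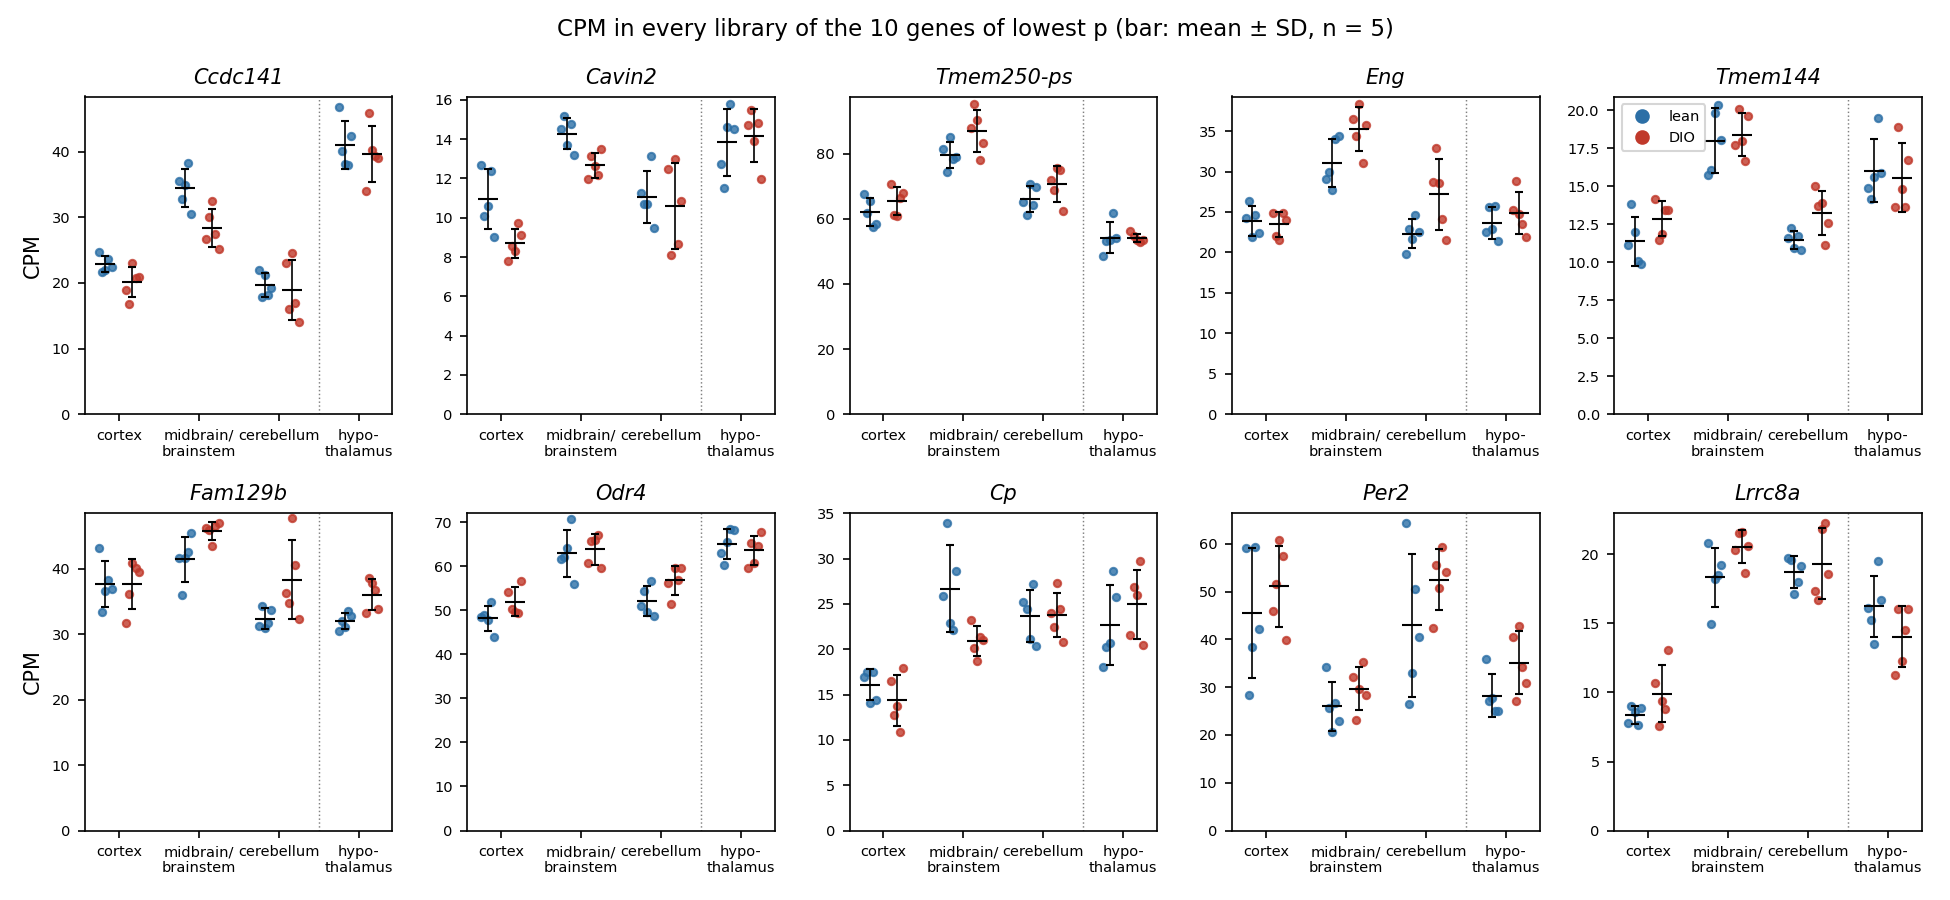
CPM of the 10 genes of lowest p in each library of the 3 regions and, right of the dotted line, of the hypothalamus (blue lean, red DIO; black bars give mean ± SD, n = 5). The groups overlap in each panel and region: for Ccdc141 in cortex, DIO spans 16.9 to 23.1 CPM and lean 21.7 to 24.7 CPM.

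Gene lists for lipid use, energy, hormone response, immune cells, glia and neurons were then read as groups. Of 30 lists, 28 had at least 1 gene among the 2405, and 0 of their 214 tested members passed the test, as for all genes (0%). The values are therefore estimates with intervals, set beside the median of all 2405 genes, 0.01. In these bulk samples, fewer cells of a type and less RNA per cell cannot be told apart.

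Estimates for the few tested genes of lipid synthesis were close to 0. Of 23 genes listed for fatty acid synthesis 4 were in the table and 3 were tested, with a median of 0.03. Elovl6, which lengthens saturated fatty acids, differed by 0.03 (95% interval -0.08 to 0.13), and Acss1, which makes acetyl-CoA in mitochondria, by 0.04 (95% interval -0.09 to 0.18). Of 25 genes listed for cholesterol synthesis and uptake 5 were in the table, and the 4 tested had a median of 0.01. Pmvk, an enzyme of the mevalonate pathway, differed by -0.04 (95% interval -0.12 to 0.04), and Hsd17b7, a later enzyme of the route, by 0.05 (95% interval -0.10 to 0.20). The intervals of these 4 named genes lie within a 1.25-fold difference. For fatty acid oxidation 8 of 9 tested genes had estimates above 0, with a median of 0.06.

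The lowest p of that list belonged to Acadl and Decr1, enzymes of mitochondrial beta-oxidation. Acadl was at 53.2, 42.0, 57.8, 50.8 and 48.5 CPM in DIO cerebellum and 45.5, 47.1, 42.0, 45.7 and 45.2 CPM in lean cerebellum. The 2 highest DIO values, 53.2 and 57.8 CPM, were from libraries with cortical markers, while lean 3 and lean 5, which also held such markers, were at 42.0 and 45.2 CPM, no higher than the other lean libraries. In the pooled fit Acadl differed by 0.07 (95% interval -0.01 to 0.15) and Decr1 by 0.11 (95% interval -0.01 to 0.24). Without the 5 libraries with neighbouring markers the median of the list was 0.02, and in cortex it was -0.02.

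Most ribosomal and respiratory chain genes had estimates above 0 for diet and also differed between the library classes. All 15 tested ribosomal protein genes had estimates above 0 (median 0.11), and so did 15 of 17 genes of the respiratory chain and ATP synthase (median 0.05). Rps3a1, a ribosomal protein outside the index, was at 216, 179, 222, 168 and 223 CPM in DIO cortex and 167, 178, 213, 161 and 162 CPM in lean cortex, and the groups overlapped. The values of 213 CPM and above were from DIO 1, DIO 3, DIO 5 and lean 3, the 4 high-index libraries of cortex. The low-index libraries of both diets lay between 161 and 179 CPM. Between high-index and low-index libraries 14 of the 15 ribosomal and 14 of the 17 respiratory genes were higher in the high-index ones, with medians of 0.59 and 0.45. Rpl35, a ribosomal protein, went the other way. The lists share Rpl39, Atp5e and Ndufc1 with the index, so the class difference of those 3 was fixed by its construction. With a term for class in each region the diet medians were 0.03 and 0.01. Rps3a1 differed by 0.11 (95% interval -0.03 to 0.24) and Rpl7 by 0.11 (95% interval -0.11 to 0.33), both ribosomal proteins. Atp5c1, a subunit of ATP synthase, differed by 0.06 (95% interval -0.06 to 0.19) and Cox7b, a subunit of cytochrome oxidase, by 0.12 (95% interval -0.09 to 0.32).

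Genes of insulin, leptin and growth factor signalling spread on both sides of 0, with a median of 0.03 over 11 tested genes. Irs1, the docking protein downstream of the insulin receptor, differed by 0.04 (95% interval -0.10 to 0.18). Foxo1, a transcription factor held out of the nucleus by insulin, differed by -0.10 (95% interval -0.27 to 0.07), and Ptpn1, a phosphatase that dampens insulin and leptin receptors, by 0.03 (95% interval -0.08 to 0.15). Grb14, an adaptor that inhibits the insulin receptor, had the lowest p of the list at 0.13 (95% interval -0.04 to 0.30). Igfbp5, a binding protein of insulin-like growth factors, differed by -0.12 (95% interval -0.33 to 0.09).

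Estimates for microglial genes lay on both sides of 0, and 0 passed the test. The 7 tested microglial markers had a median of -0.002. P2ry12, the purine receptor of resting microglia, differed by -0.07 (95% interval -0.26 to 0.11), Ctss, a lysosomal protease, by 0.11 (95% interval -0.03 to 0.26), and Fcrls, a scavenger receptor-like protein, by 0.21 (95% interval -0.14 to 0.55). The summed CPM of 19 microglial genes in the table was 262 to 298 in DIO and 262 to 289 in lean cortex, 195 to 227 and 203 to 227 in midbrain and brainstem, and 126 to 200.2 and 123 to 161 in cerebellum. The ranges of the diets overlapped in each region, and cerebellum DIO 1 and DIO 3, which held cortical markers, were the 2 highest of their region, followed by lean 5 and lean 3, which held such markers too. Csf1, a growth factor for microglia, differed by 0.05 (95% interval -0.03 to 0.14). Samhd1, which depletes nucleotides needed by viruses, differed by -0.05 (95% interval -0.14 to 0.04), and Vcam1, an adhesion molecule of activated endothelium, by 0.04 (95% interval -0.15 to 0.23). The tested interferon genes had a median of 0.02 and the tested inflammatory genes 0.03. Only 4 of 20 interferon genes and 4 of 12 inflammatory genes in the table reached a mean of 10 CPM. Cytokine genes such as Il1b and the acute-phase gene Lcn2 averaged no more than 0.504 CPM in any group.

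Estimates for myelin genes all lay on the DIO side. All 14 tested genes of oligodendrocytes were above 0, with a median of 0.12, although none passed the test. Hapln2, a link protein at the nodes of myelinated axons, was at 80.4, 39.8, 80.9, 42.0 and 42.2 CPM in DIO cerebellum and 38.2, 36.8, 45.3, 41.5 and 40.4 CPM in lean cerebellum. The DIO 1 and DIO 3 libraries, both with cortical markers and with raised Lmx1b, lay above all lean libraries. The other 3 DIO libraries lay within the lean range of 36.8 to 45.3 CPM. The part of midbrain and brainstem tissue in these values was not tested. Lean 3 and lean 5, with cortical markers as well, were at 45.3 and 40.4 CPM. Its level in midbrain and brainstem was 118, 154, 131, 109.7 and 124 CPM in DIO and 112, 98.4, 151, 132 and 128 CPM in lean, and the groups overlapped. The pooled difference of Hapln2 was 0.19 (95% interval -0.03 to 0.40). The median of the list was 0.28 in cerebellum, 0.06 in cortex and -0.003 in midbrain and brainstem. It was 0.03 without the 5 libraries with neighbouring markers, -0.08 within low-index and 0.34 within high-index libraries.

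Other glial and vascular lists had estimates of both signs. The 12 tested astrocyte genes had a median of 0.05, with 9 estimates above 0. Of the 12 tested vascular genes 8 had estimates above 0, among them Slc16a1, a monocarboxylate transporter of the blood-brain barrier, at 0.10 (95% interval -0.06 to 0.26). Genes of the meninges had a median of -0.06, and Fmod, a small matrix proteoglycan, was at 12.9, 10.2, 6.06, 5.91 and 13.8 CPM in DIO cortex and 15.3, 13.3, 11.7, 18.7 and 12.4 CPM in lean cortex. Fmod differed by -0.24 (95% interval -0.48 to 0.004) in the pooled fit, and Bmp7, a growth factor of the meninges, by -0.15 (95% interval -0.36 to 0.07). The summed meningeal markers in cortex were 383 to 873 CPM in DIO and 570.3 to 795 CPM in lean, and the share of meninges left on each sample was not tested. F5, the only choroid plexus marker tested, was at -0.23 (95% interval -0.99 to 0.54), and Neb, the only gene of the muscle, fat and liver list tested, at -0.08 (95% interval -0.57 to 0.42). In these libraries Neb was highest in cerebellum, at 14.7 to 81.1 CPM, against 2.30 to 3.74 CPM in cortex. Its highest value in midbrain and brainstem, 17.6 CPM, was from DIO 4, the library with raised Car8. The 5 blood markers summed to at most 12.2 CPM in any library.

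Over 23 tested genes of synaptic vesicles and transmission the median was -0.01, and over 16 ion channels it was -0.01. Snap25, part of the complex that fuses synaptic vesicles, differed by 0.02 (95% interval -0.15 to 0.19), and Syp, a vesicle membrane protein, by -0.01 (95% interval -0.09 to 0.07). Dlg3, a scaffold of glutamate receptors, had the lowest p among synaptic genes at -0.07 (95% interval -0.15 to 0.01). Kcnd3, a potassium channel of the A-type current, had the lowest p among channels at -0.15 (95% interval -0.30 to 0.004). In cerebellum Kcnd3 was at 137, 153, 120.0, 137 and 149.8 CPM in DIO and 161, 174, 141, 157 and 131 CPM in lean, and the groups overlapped. Syt11, a synaptotagmin of vesicle recycling, was at 0.06 (95% interval -0.05 to 0.16), and Scn2a, a sodium channel of axons, at -0.12 (95% interval -0.30 to 0.05). Markers of region-specific neurons gave a median of -0.07 for 6 tested genes of cortex and hippocampus, -0.16 for 3 of striatum, 0.01 for 4 of cerebellum and -0.05 for 3 of midbrain, brainstem and thalamus. Prox1, which marks granule neurons of the dentate gyrus, was at 0.08 (95% interval -0.18 to 0.34). Pax6, a transcription factor of cerebellar granule cells, was at -0.08 (95% interval -0.41 to 0.25), Tfap2b at -0.12 (95% interval -0.45 to 0.22) and Synpo2 at -0.05 (95% interval -0.37 to 0.26). Without 8 libraries and with a term for class, the medians were 0.06 for cortex and hippocampus and 0.03 for striatum, of the opposite sign.

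Of the neuropeptide and feeding genes 10 of 21 in the table were tested, with a median of -0.03. Penk, the enkephalin precursor, was at 110.3, 136, 135, 294 and 177 CPM in DIO cortex and 506, 156, 191, 277 and 309.5 CPM in lean cortex. The highest value came from lean 1 (857 CPM summed over 5 striatal markers, Penk among them), against 271 to 555 CPM over the DIO cortex libraries. The part of striatal tissue in this value was not tested. Penk differed by -0.16 (95% interval -0.48 to 0.16) in the pooled fit, Bdnf, a neurotrophin, by -0.01 (95% interval -0.18 to 0.15), Chgb, a granin of secretory granules, by -0.09 (95% interval -0.28 to 0.10), and Cnr1, the cannabinoid receptor of neurons, by -0.04 (95% interval -0.26 to 0.18).

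Clock, hormone and stress lists had few tested members, with medians of 0.08 over 5 clock genes, 0.04 over 4 glucocorticoid targets and 0.07 over 5 immediate early genes. Beside Per2, the clock list held Cry2, its partner in repression, at 0.08 (95% interval -0.02 to 0.18) and Npas2, an activator that drives Per genes, at -0.21 (95% interval -0.53 to 0.10). Tsc22d3, a gene induced by glucocorticoids, differed by 0.19 (95% interval -0.05 to 0.44) and Txnip, a glucose-responsive inhibitor of glucose uptake, by -0.06 (95% interval -0.20 to 0.07). The immediate early genes Nr4a2 and Rgs2 were at 0.15 (95% interval -0.20 to 0.51) and 0.12 (95% interval -0.15 to 0.39). The 7 genes of the unfolded protein response had a median of 0.01, with the chaperone Hspa5 at 0.01 (95% interval -0.28 to 0.29). Dnajc10, a disulfide reductase of the endoplasmic reticulum, was at 0.07 (95% interval -0.15 to 0.28) and Edem2, which trims sugars of misfolded proteins, at 0.02 (95% interval -0.07 to 0.11). The 9 lysosomal genes had a median of 0.02, and Ctsa, a lysosomal carboxypeptidase, was at -0.05 (95% interval -0.12 to 0.03). The 10 matrix genes had a median of -0.005.

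**Figure D4:**
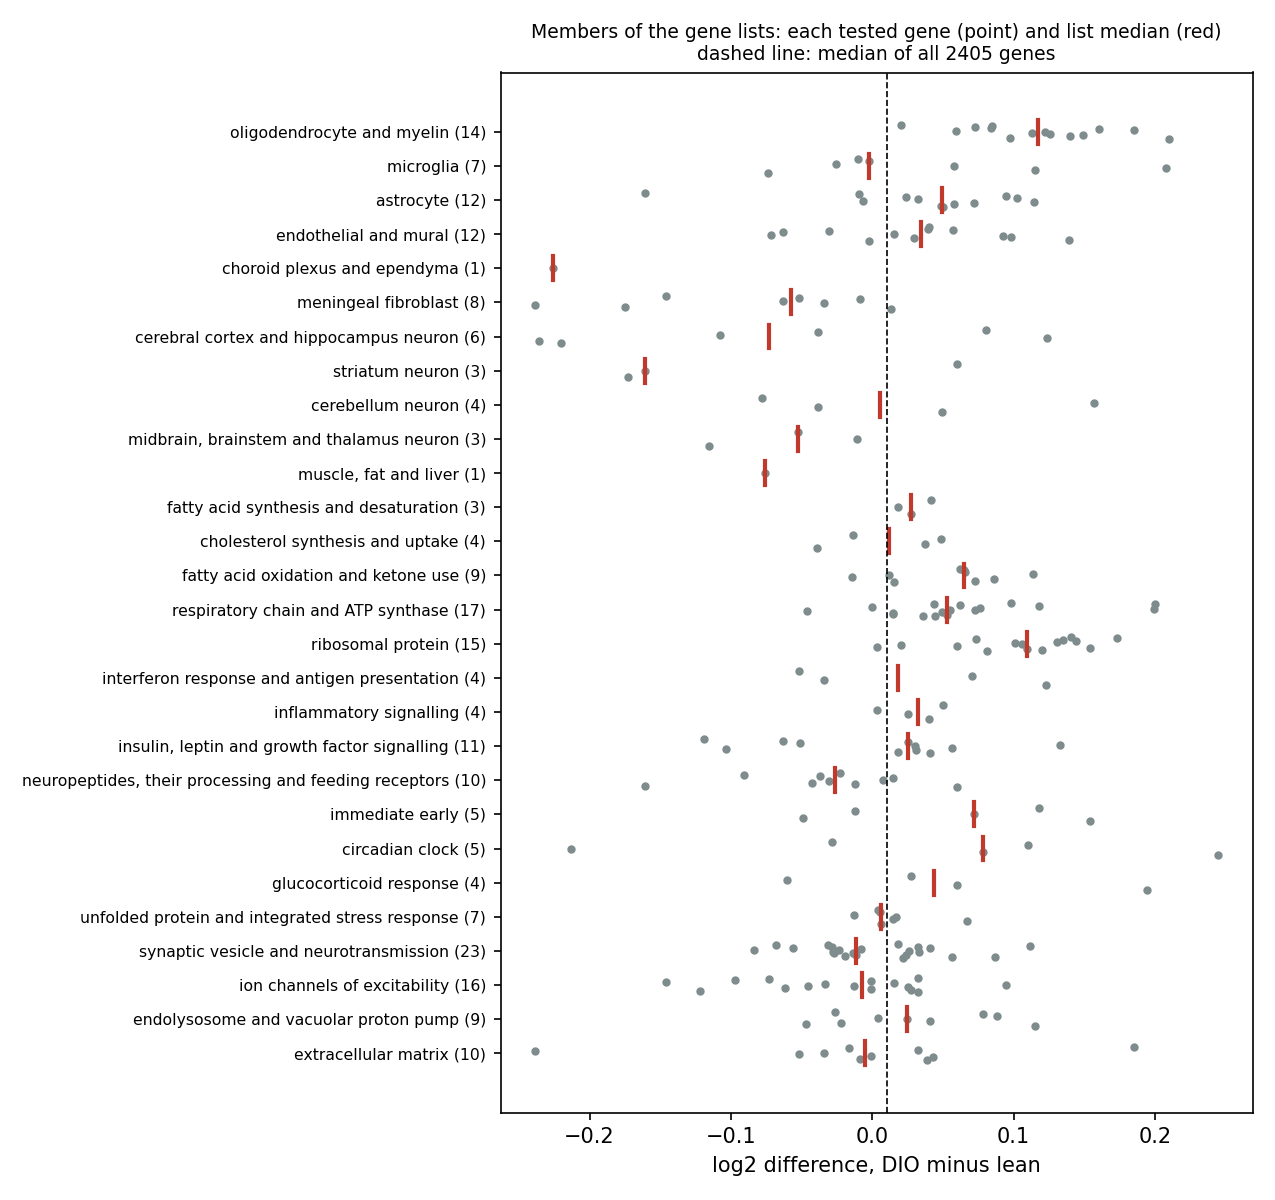
Each grey point is the pooled log2 difference, DIO minus lean, of 1 tested member of the list named at the left (number tested in brackets), and each red bar is the list's median; the dashed line is the median of all 2405 genes (0.01). Oligodendrocyte and ribosomal members lie wholly right of 0, and 0 members of any list passed the test.

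Within single regions 0 of 2405 genes passed in cortex (0%), 0 in midbrain and brainstem (0%) and 0 in cerebellum (0%) by limma. At an unadjusted p under 0.05 there were 69, 17 and 15 genes in that order. With edgeR the counts were 0 passed in each region and 75, 21 and 16 at an unadjusted p under 0.05. With DESeq2 they were 0 passed in each and 83, 27 and 24. Median half-widths of the 95% interval were 0.22 in cortex, 0.21 in midbrain and brainstem and 0.27 in cerebellum, wider than the 0.13 of the pooled fit. Since no gene passed over any pair of regions (0 in each of 3 fits by limma, with 17, 9 and 33 genes at an unadjusted p under 0.05), there was no set of genes whose direction could be read in the region left out.

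The diet difference was not shown to vary between the regions either. An F test of diet by region passed 0 of 2405 genes (0%) in limma, with 37 genes at an unadjusted p under 0.05. With edgeR 0 passed and 40 were under 0.05 unadjusted, and with DESeq2 0 passed and 46 were. The 3 genes of lowest p were Arhgap6, Col19a1 and Pbx3, each with an adjusted p of 0.998.

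Arhgap6, which speeds GTP hydrolysis by small GTPases, was at 4.22, 8.55, 15.1, 7.88 and 10.5 CPM in DIO cortex and 19.4, 14.1, 15.8, 19.2 and 17.2 CPM in lean cortex. In cerebellum it was at 10.1, 5.05, 5.46, 2.86 and 5.06 CPM in DIO and 2.79, 3.93, 5.15, 3.77 and 5.19 CPM in lean. Most DIO values lay below the lean ones in cortex, with differences of -0.91 there, -0.05 in midbrain and brainstem and 0.32 in cerebellum. Col19a1, a collagen made by interneurons, differed by 0.23 in cortex and -0.33 in cerebellum, and Pbx3, a homeodomain protein, by -0.42 and 0.23. Lean 1 held the highest Pbx3 value in cortex (24.5 CPM) and was also the cortex library with the highest striatal markers.

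**Figure D5:**
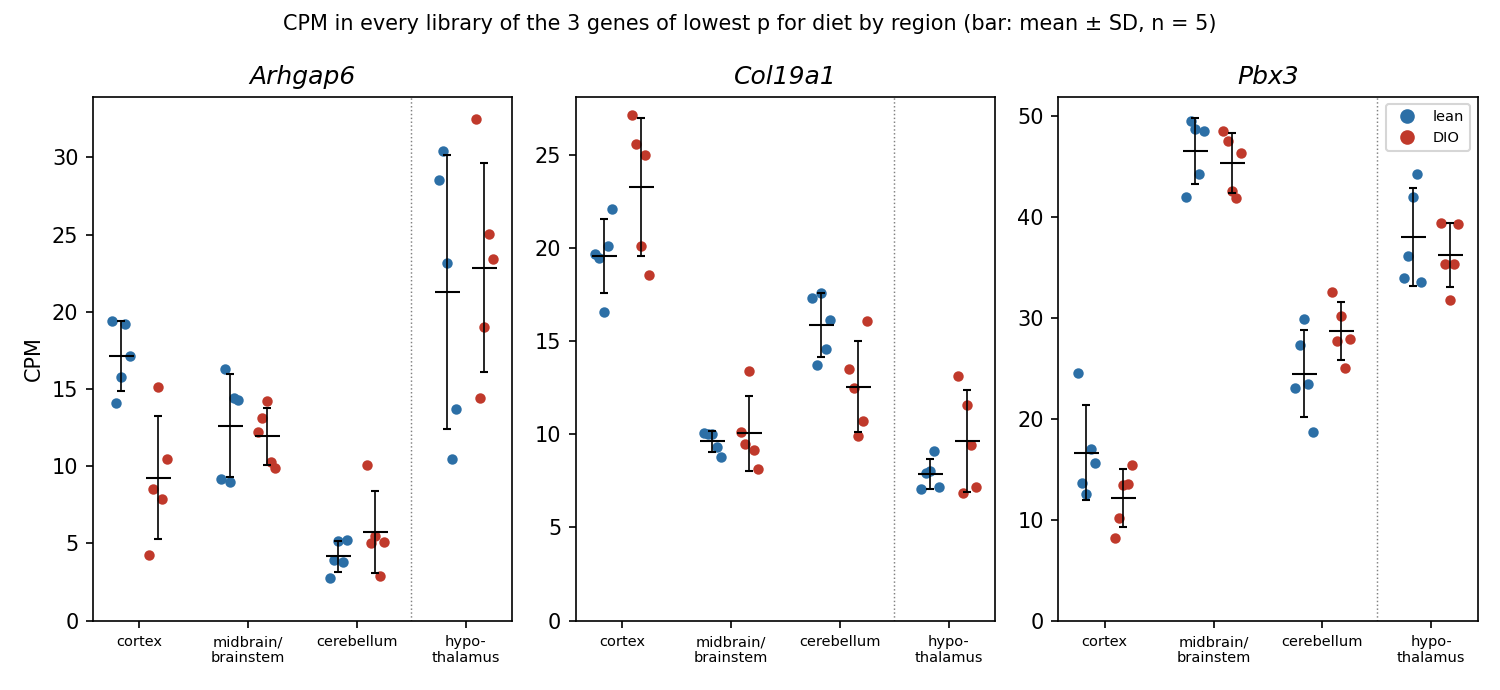
CPM in each library of the 3 genes of lowest p for diet by region, by region and diet (blue lean, red DIO; black bars give mean ± SD, n = 5; hypothalamus right of the dotted line). Arhgap6 is lower in most DIO cortex libraries (4.22 to 15.1 CPM against 14.1 to 19.4 CPM), with an overlap at the upper end of the DIO range.

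The hypothalamus, with 5 DIO and 5 lean libraries outside the pooled set, was fitted on the same genes. Again 0 of 2405 genes (0%) passed by limma, with 58 at an unadjusted p under 0.05. With edgeR 0 passed and 75 were under 0.05 unadjusted, and with DESeq2 0 passed and 87 were. All 10 of its libraries had a high index, between -0.70 and -0.38. Their region markers varied widely. Hypothalamic and pituitary markers summed to 0.514 CPM in lean 4, 4.37 CPM in lean 5 and 4.63 CPM in DIO 2, against 37.1 to 96.1 CPM in the others. Car8 was at 110 CPM in lean 4, against 11.3 to 15.4 CPM in the others. Tbr1 was at 30.9 CPM in DIO 1 and 39.8 CPM in DIO 3, against at most 9.78 CPM. The part of dissection in the values below was not tested. Ccdc141 differed there by -0.05 (95% interval -0.23 to 0.13), Cavin2 by 0.04, Cp by 0.14 and Lrrc8a by -0.20. Tmem144 differed by -0.04, Odr4 by -0.03 and Tmem250-ps by 0.003. Cavin2, Cp, Lrrc8a, Tmem144 and Odr4 thus had the opposite sign from the pooled estimate. Eng differed by 0.07, Per2 by 0.30 and Fam129b by 0.17, like Ccdc141 on the same side as in the pooled fit. Fam129b was at 33.3, 38.5, 37.8, 36.7 and 33.9 CPM in the DIO hypothalamus and 30.5, 32.1, 31.1, 33.5 and 32.7 CPM in the lean one. Only the lowest DIO library lay below the highest lean one, and its adjusted p in limma was 0.837. The myelin list had a median of -0.06 in hypothalamus and the ribosomal list 0.01, beside -0.01 over all genes. The libraries are not those of the pooled fit, but they probably come from the same mice.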

How the data were processed

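RNA of 3 brain regions and of the hypothalamus was sequenced from frozen tissue with a stranded mRNA kit as paired reads, per the labels' protocols. The authors deposited 1 table in CPM for the whole series. FastQC, STAR, HTSeq and DESeq2 are named in the submitters' processing notes. No source used here gives their versions, settings or genome build. The table held 205 columns (1 of no sample in the series, left out) and 13154 genes (1 incomplete, left out), which was 23.7% of the genes in GENCODE M21 (GRCm38). Symbols and positions come from that annotation by gene identifier (13139 matched), and genes elsewhere were not analysed here. Of the 8614188 to 28082061 reads per library, 21.0% to 22.7% fell on genes in the table. CPM came out as whole reads for 100% of values within 0.001 read, so count tests could be run as alternatives.

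Genes averaging 10 CPM or more over the 30 libraries were fitted as log2(CPM + 1) with limma 3.58.1 (R 4.3.3) with a mean-variance trend, as region plus diet over 30 libraries, as diet within a region, and as diet by region. P-values were adjusted by the Benjamini-Hochberg method over 2405 genes with a threshold of 0.05. Intervals are 95% intervals of limma. The pooled and diet by region fits were also run on simulated counts, drawn independently for each library around the region means. The simulation held no library classes and no shared mice, so it does not test their effect on the fits. Differences and list medians are given on the log2(CPM + 1) scale. Alternatives were a pseudocount of 5, no filter, a mean of at least 1 CPM, median-of-ratios rescaling, array weights, edgeR 4.0.16 (TMM and RLE) and DESeq2 1.42.0 on recovered reads, the index as a covariate, each region or library left out, and the hypothalamus added. Chosen after seeing the data were a class term, leaving out 5 libraries with neighbouring markers or 8 with markers of other regions, each also with the class term, and fits within each class. Class was set at the largest gap of the index in each region. The regions, gene lists and rules were chosen with earlier results of these data known. Named were the 10 genes of lowest p, since none passed, the lowest p for diet by region, up to 2 of lowest p for each list, and Snap25 and the marker lists; other list members in the text were picked for their known roles after values were seen. All 60 replicate pairs were compared by chi-square of their reads (lowest 3.48 per degree of freedom, median 17.6), so no pair was treated as 1 library deposited 2 times. A few genes that these rules select are not reported here. Replicate numbers follow accession order. Nothing in the labels says how replicates were sampled beyond the mice, so p-values measure the spread between these libraries.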

Additional observations from a re-analysis of the deposited data

Results flagged for a closer look

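In 138 groups of 5 libraries (10 genes and 13 summed marker lists in 6 groups), 7 held a library farther from the others than Dixon's 95% limit allows. Chance alone flags about 5% of such groups. The flags were all on marker sums, and 0 on the 10 genes. Those genes were picked from these data for low p, which favours a small spread. The share over all 138 groups therefore does not tell whether the flags on marker sums are more than chance gives. Striatal markers summed to 555 CPM in cortex DIO 4, against at most 323 CPM in the other 4 DIO libraries. Hypothalamic and pituitary markers, mainly Avp and Oxt, summed to 20.5 CPM in cortex DIO 5, against at most 1.33 CPM. Muscle, fat and liver markers summed to 27.2 CPM in cortex lean 1, against at most 17.5 CPM. In midbrain and brainstem DIO 4, cerebellar neuron markers summed to 391 CPM, against at most 124 CPM, and cortical and hippocampal neuron markers to 253 CPM, against at least 334 CPM. Meningeal markers summed to 933 CPM in midbrain and brainstem DIO 3, against at least 1033 CPM. Cortical and hippocampal neuron markers summed to 204 CPM in cerebellum DIO 3, against at most 135 CPM. Cerebellum DIO 1, which also held cortical markers, was not flagged by this sum, which was 129 CPM there. Cortex DIO 4, DIO 5 and lean 1, midbrain and brainstem DIO 4 and cerebellum DIO 3 are among the 8 libraries left out in a refit, which called 0 genes by limma (27 at an unadjusted p under 0.05, against 18 with all libraries).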

How the results depend on the processing

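The count of 0 genes in the pooled comparison held in 19 of 20 alternatives and in all 30 fits that left out 1 library (0 to 0 genes). The exception, chosen after seeing the data, was the term for library class in each region without the 5 libraries with neighbouring markers, which called 1 gene, Ccdc141, at -0.25 (adjusted p = 0.0414); either step alone called 0, and so did the same term without 8 libraries (adjusted p = 0.0560). Array weights gave 0 genes, with a lowest adjusted p of 0.0907. Without the filter on low values, 2 genes passed for diet by region (Prlh and Gcg) and 1 in cortex (Gm44027), all read in few libraries; these were named after their values were seen. In all other alternatives, leaving out single libraries included (0 to 0 genes), the counts for diet by region, for each region, for hypothalamus and for list members stayed at 0. At an unadjusted p under 0.05 the pooled count ranged from 9 to 128 over the alternatives that kept the filter of 10 CPM. The 128 were of 2405 genes within the low-index libraries. Looser filters gave 42 of 3466 genes (mean of at least 1 CPM) and 199 of 8131 genes (no filter). Array weights raised the count from 15 to 690 in cerebellum and from 69 to 719 in cortex. The signs of the 10 genes of lowest p changed in 1 of 500 refits, while list medians changed sign in 184 of 1400. Rescaling moved the median of all genes from 0.01 to -0.004. No paired analysis was possible because the labels give no replicate number shared between the groups. Genes averaging under 10 CPM, where depth limits precision, were outside the main fits.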

Other observations

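Genes at lower levels were outside the comparison. Of the feeding-related genes in the table, Crh, the corticotropin-releasing hormone, averaged 0.771 to 10.4 CPM over the 6 groups of the 3 regions, Npy2r, a receptor of neuropeptide Y, 1.18 to 16.6 CPM, Mc3r, a melanocortin receptor, 0.107 to 0.453 CPM and Ghsr, the ghrelin receptor, 0.173 to 1.58 CPM. Microglial genes below the filter averaged 2.62 to 7.99 CPM for Gpr34 and 0.607 to 1.12 CPM for Cybb. Interferon-inducible guanylate-binding proteins averaged 3.15 to 5.40 CPM (Gbp2) and 3.58 to 6.29 CPM (Gbp7). Hoxd3, a hindbrain Hox gene, had 2.4989 to 5.59 CPM in the midbrain and brainstem libraries and was at 0 in all cortex libraries, where 0 reads allow up to 0.249 CPM at the shallowest library (3 reads, counting error only).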
